A study of Arabidopsis thaliana with 3 samples.

Results

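Leaf transcripts of 5 aldehyde dehydrogenase genes of Arabidopsis thaliana were followed in plants that overexpress the transcription factor WIN1. The genes were chosen by name, and each was read by 1 probe set that the array annotation pairs with that gene alone. They are ALDH10A9 (AT3G48170), ALDH11A3 (AT2G24270), ALDH7B4 (AT1G54100), ALDH6B2 (AT2G14170) and ALDH3F1 (AT4G36250), 5 of the 3592 loci that could be named on the array. The array holds 8247 probe sets, each a group of short probes designed against a transcript, and reports 1 intensity for each.

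The WIN1 group had 2 arrays, each of leaf RNA pooled from several T2 plants carrying 35S:WIN1, 1 for line 13 and 1 for line 22. The control was 1 array of leaf RNA pooled from several plants transformed with an empty binary vector. The 35S promoter of cauliflower mosaic virus is known to be active in most tissues. Plant age and the number of plants in a pool were not given in the labels. The labels give the lines by number and do not say whether they are separate transformants, and a pool hides the differences between plants. Errors are the SD of the 2 lines, and p-values measure the spread between these pools. The control has no replicate, and its error enters both ratios without showing in that SD. In pooled tissue, fewer cells of a type and less RNA per cell cannot be told apart.

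Aldehyde dehydrogenases oxidise aldehydes to carboxylic acids and pass the electrons to NAD+ or NADP+. Plants use them to finish catabolic pathways whose intermediates are aldehydes and to remove reactive aldehydes that form from lipids under drought, salt or oxidative stress. WIN1, also called SHINE1, belongs to the AP2/ERF family of transcription factors and is known for making leaves glossy by raising their epidermal wax, in whose synthesis aldehydes are also intermediates. The annotation used here pairs no probe set with AT1G15360, the WIN1 locus, and the level of WIN1 itself was not analysed here.

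Before scaling, the median intensity was 70.2 on the line 13 array, 35.2 on the line 22 array and 84.1 on the control array. Scaling brought the 3 arrays to the same trimmed mean. Log2 ratios were taken after a pseudocount of 18.6 was added to each scaled intensity, which understates the ratios of dim probe sets. Of the 8247 probe sets, 5773 were bright enough to be kept, and all 5 genes were among them. The log2 intensities of line 13 correlated with those of the control at r = 0.965 across kept probe sets, and those of line 22 at r = 0.84, with probe sets as points that are not independent of each other. The SD of the ratios to the control was 0.401 in line 13 and 0.936 in line 22, so the line 22 ratios scatter more. Of 12 listed leaf genes, 5 were matched (LHCB4.1, PSAE-1, RCA, PRK and SBPASE), all kept, with scaled intensities from 522.8 upward on every array. Over these 5 the median log2 ratio was -0.02 in line 13 but 0.71 in line 22. The kept probe sets were also divided into 5 groups of near-equal size by intensity. The brightest 1155 had medians of -0.02 and 0.29. In the other groups the line 22 median lay below 0, from -0.26 to -0.08. It was -0.24 in the group of ALDH6B2 and ALDH10A9 and -0.12 in that of ALDH7B4. Whether these shifts play a part in the values below was not tested. None of the listed markers of flower (5 genes), seed (7), root (5) or senescing leaf (3) was matched to a probe set, so other tissues in the pools were not measured here.

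ALDH6B2 stood higher in both WIN1 lines than in the control (2.12-fold in line 13 and 3.77-fold in line 22 by scaled intensity), ALDH3F1 was slightly higher in both, ALDH11A3 slightly lower in both, and ALDH10A9 and ALDH7B4 lay on opposite sides of the control in the lines. No gene passed the test. The limma fit over all kept probe sets, two-sided with Benjamini-Hochberg adjustment, put 0 of the 5 past an adjusted p of 0.05, and 0 of the 5 had an unadjusted p under 0.05. Of all kept probe sets, 0.0346% passed the adjusted threshold and 2.23% had an unadjusted p under 0.05. The count of 2 higher in both lines stands beside 27.1% of all kept probe sets. The 1 lower in both stands beside 30.4%, and the 2 on opposite sides beside 42.5%. For the 5 genes the median log2 ratio was 0.30 (line 13) and -0.13 (line 22), against 0.01 and -0.09 over all kept probe sets. With 5 genes, these shares are a description of the genes and not of the family.

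**Figure D1:**
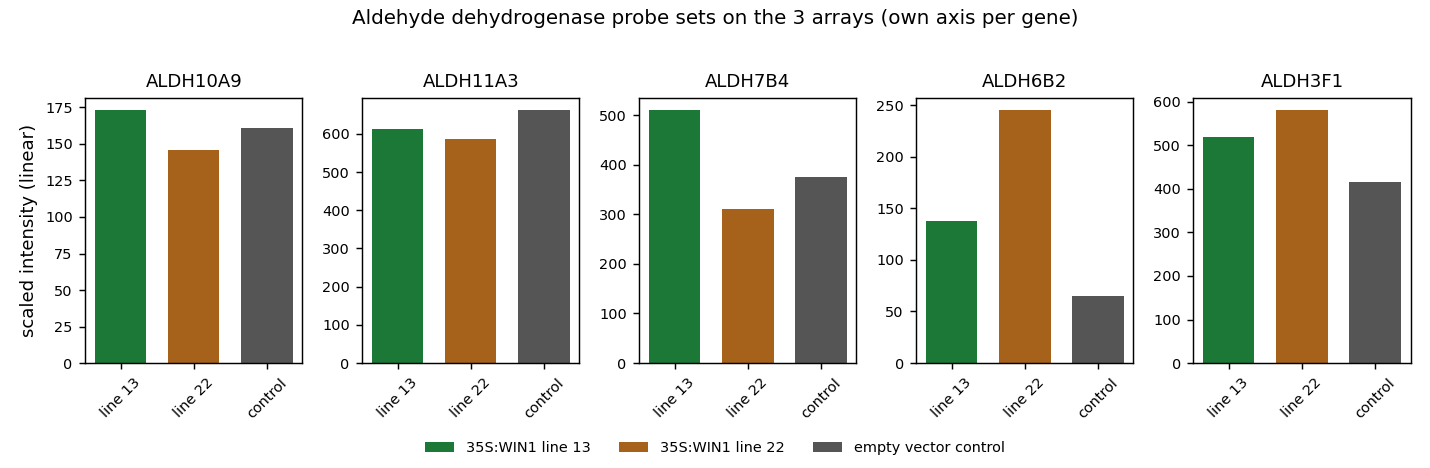
Scaled linear intensity of the 5 aldehyde dehydrogenase probe sets in 35S:WIN1 line 13, 35S:WIN1 line 22 and the empty vector control, 1 bar per array and an axis of its own for each gene. ALDH6B2 reads 137.7 and 244.9 in the lines and 64.9 in the control, while ALDH11A3 reads 613.2 and 586.6 in the lines and 661.5 in the control.

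ALDH6B2 encodes methylmalonate-semialdehyde dehydrogenase, a mitochondrial enzyme that works near the end of valine breakdown. Its probe set, 17868_at, read 137.7 in line 13 and 244.9 in line 22 as scaled intensities, against 64.9 for the control. Both lines were above the control, line 22 more than line 13. As linear ratios with no pseudocount these are 2.12-fold in line 13 and 3.77-fold in line 22. On the pseudocount scale the log2 ratio was 0.90 in line 13 and 1.66 in line 22, with a mean of 1.28 ± 0.533 (SD, n = 2 lines). The limma SE of that mean was 0.754, and its 95% interval ran from -0.22 to 2.78. The interval includes 0, and the gene did not pass (limma adjusted p = 1). The error of this test comes almost wholly from the difference between the lines, pooled over all kept probe sets, whose SD was 0.898.

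The position of ALDH6B2 among the ratios of all kept probe sets, itself included, was also recorded. Of all kept probe sets, 2.03% had a ratio at least as high in line 13 and 1.35% in line 22. In both lines at once 32 probe sets did, or 0.554%. ALDH6B2 had the highest ratio of the 5 genes in each line, so these shares describe the extreme of 5. For the other genes the share in both lines ran from 6.27% (ALDH3F1) to 39.3% (ALDH11A3). The ratios of the 2 lines share the control array, so a control value that is low by error raises both. The rank of ALDH6B2 within each array needs no scaling, but it depends on how the values of that array are spread. It lay at the 64.1th percentile of all probe sets in line 13 and at the 78.6th in line 22, against the 49.6th in the control. By rank ALDH10A9 was also higher in both lines (68.7 and 69.5, against 67.6 in the control), although its line 22 log2 ratio was -0.13. ALDH3F1, ALDH7B4 and ALDH11A3 kept by rank the sides given by their ratios.

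The spread between probe sets of the same gene gives a rough yardstick for a gene read by 1 probe set. For this, 108 genes were read by more than 1 kept probe set, 228 probe sets together. Around the mean of their gene, their log2 ratios had an SD of 0.216 for line 13 and 1.12 for line 22. The ALDH6B2 ratio was 4.19 of these SDs in line 13 and 1.48 in line 22. The smaller ratio of line 13 thus stands further beyond the spread between probe sets than the larger ratio of line 22. This spread covers the probes and the noise of single readings. A shift shared by the probe sets of a gene cancels in it, whether from the arrays or from the pools of plants. Probes shared between the probe sets of a gene would narrow it, and such sharing was not checked. The genes used for it were not matched to ALDH6B2 by intensity. Over all kept probe sets the SD of the ratios was 0.401 in line 13 and 0.936 in line 22. Within the intensity group of ALDH6B2 it was 0.359 in line 13 and 0.974 in line 22.

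By the rule of size, a log2 ratio of at least 1 with the same sign in both lines, 0 of the 5 genes qualified, beside 1.42% of all kept probe sets. ALDH6B2 fell short of it in line 13 by its ratio of 0.90. With a smaller pseudocount, at the 5th percentile of the positive values, its ratios were 1.04 and 1.85, and 1 of the 5 genes then met the rule. On the pseudocount scale, 0 of the 5 genes were at least 2-fold from the control in line 13 alone, beside 2.74% of kept probe sets. In line 22 alone 1 was, ALDH6B2, beside 23.8%. With no pseudocount ALDH6B2 was 2.12-fold in line 13.

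**Figure D2:**
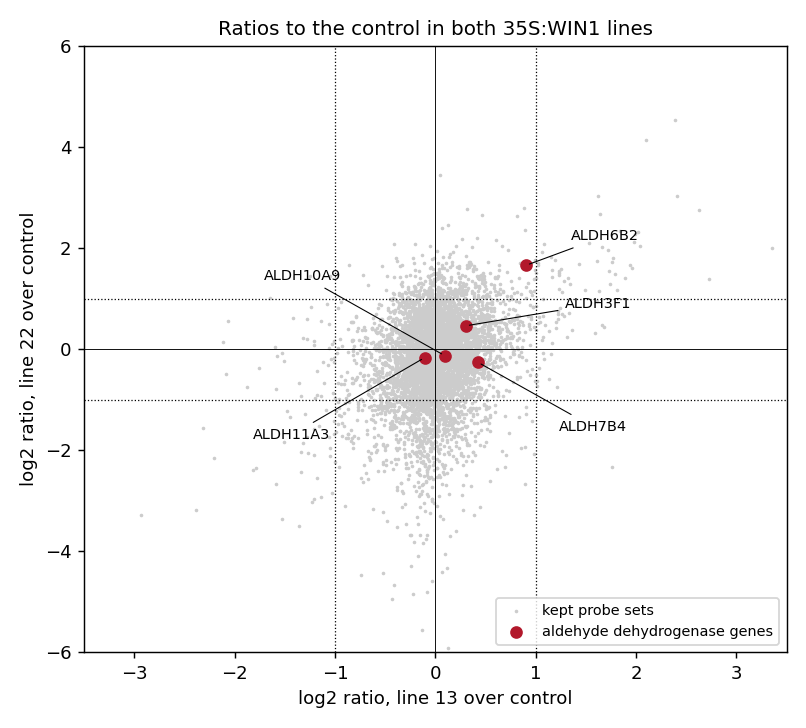
Log2 ratio to the control in line 13 (horizontal) and line 22 (vertical) for kept probe sets (grey, 1 lies outside the axes) and the 5 aldehyde dehydrogenase genes (red), with dotted lines at a log2 ratio of 1 and -1. ALDH6B2 lies at 0.90 and 1.66, at the upper right edge of the cloud, and the other 4 genes lie inside it.

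ALDH3F1 is a class 3 aldehyde dehydrogenase. Its probe set, 19439_at, read 518.9 in line 13 and 580.5 in line 22, against 416.7 for the control. Both lines read above the control, by less than in ALDH6B2. The log2 ratios were 0.30 in line 13 and 0.46 in line 22, with a mean of 0.38 ± 0.111 (SD, n = 2 lines; limma 95% interval -1.07 to 1.84, limma adjusted p = 1). In line 13 this was 1.41 times the SD between probe sets of a gene and in line 22 0.411 times. Of the 5 intensity groups, ALDH3F1 fell in the brightest (1155 probe sets), whose median log2 ratio was -0.02 for line 13 and 0.29 for line 22. Against these medians its ratios of 0.30 and 0.46 were higher in both lines. The excess was less than the SD of the ratios in that group, 0.35 for line 13 and 0.849 for line 22. On the deposited values without scaling, ALDH3F1 had ratios of 0.00 and -0.34.

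ALDH11A3 is the cytosolic non-phosphorylating glyceraldehyde-3-phosphate dehydrogenase, which turns glyceraldehyde 3-phosphate into 3-phosphoglycerate and yields NADPH. Its probe set, 14986_at, read 613.2 in line 13 and 586.6 in line 22, against 661.5 for the control. The lines lay close together and just below the control. The log2 ratios were -0.11 and -0.17, with a mean of -0.14 ± 0.044 (SD, n = 2 lines; limma 95% interval -1.58 to 1.31, limma adjusted p = 1). Of the 5 genes it had the lines closest together, 0.06 apart on the log2 scale, and 94.1% of kept probe sets differed at least as much between the lines. Like ALDH3F1 it fell in the brightest intensity group, whose medians of -0.02 and 0.29 lay above its ratios in both lines. Its mean turned to 0.04 with the arrays scaled to a common median. With cyclic loess, an intensity-dependent normalization added after the data had been seen, it was -0.22.

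ALDH10A9, called betaine aldehyde dehydrogenase in the annotation, belongs to the enzymes that oxidise aminoaldehydes such as those left by polyamine breakdown. Its probe set, 13130_at, read 173 in line 13 and 145.6 in line 22, against 161 for the control. The control value lay between those of the lines. The log2 ratios were 0.09 and -0.13, with a mean of -0.02 ± 0.157 (SD, n = 2 lines; limma 95% interval -1.51 to 1.47, limma adjusted p = 1). Both ratios were smaller than the SD between probe sets of a gene. The mean was above 0 under 3 other normalizations, 0.15 with a common median, 0.10 after quantile normalization and 0.08 with cyclic loess, so no direction can be given for this gene.

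ALDH7B4 is the plant relative of animal antiquitin and is known as a gene induced by dehydration and abscisic acid. Its probe set, 16524_at, read 509.7 in line 13 and 310.1 in line 22, against 375.2 for the control. Line 13 was the highest of the 3 arrays and line 22 the lowest. The log2 ratios were 0.42 and -0.26, with a mean of 0.08 ± 0.484 (SD, n = 2 lines; limma 95% interval -1.38 to 1.55, limma adjusted p = 1). The line 13 ratio was 1.97 times the SD between probe sets of a gene, and 10% of kept probe sets had a ratio at least as high in that line. The line 22 ratio was -0.232 times that SD. On the deposited values without scaling the mean was -0.46, with 0.12 in line 13 and -1.05 in line 22.

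These intervals are wide. For ALDH10A9, ALDH11A3, ALDH7B4 and ALDH3F1 they reach beyond 1 log2 unit in both directions, so 3 arrays cannot tell a 2-fold change either way from no change. In order of the mean log2 ratio the genes ran from ALDH6B2 through ALDH3F1, ALDH7B4 and ALDH10A9 to ALDH11A3. ALDH6B2 headed the order in each line. Below it ALDH7B4 came next in line 13 and last in line 22, and neighbours in that lower order differed by less than the SD between the lines of ALDH7B4, 0.484. The difference between ALDH6B2 and each other gene does not depend on the scale factor of an array. With no pseudocount, the log2 ratio of ALDH6B2 exceeded that of ALDH3F1 by 0.77 in line 13 and 1.44 in line 22. It exceeded that of ALDH7B4 by 0.64 and 2.19, that of ALDH10A9 by 0.98 and 2.06, and that of ALDH11A3 by 1.19 and 2.09. These differences all reuse the same ALDH6B2 values and control reading, and their sign follows from the order given above, so they show sizes and not agreement. No test was made of them because each line had 1 array.

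**Figure D3:**
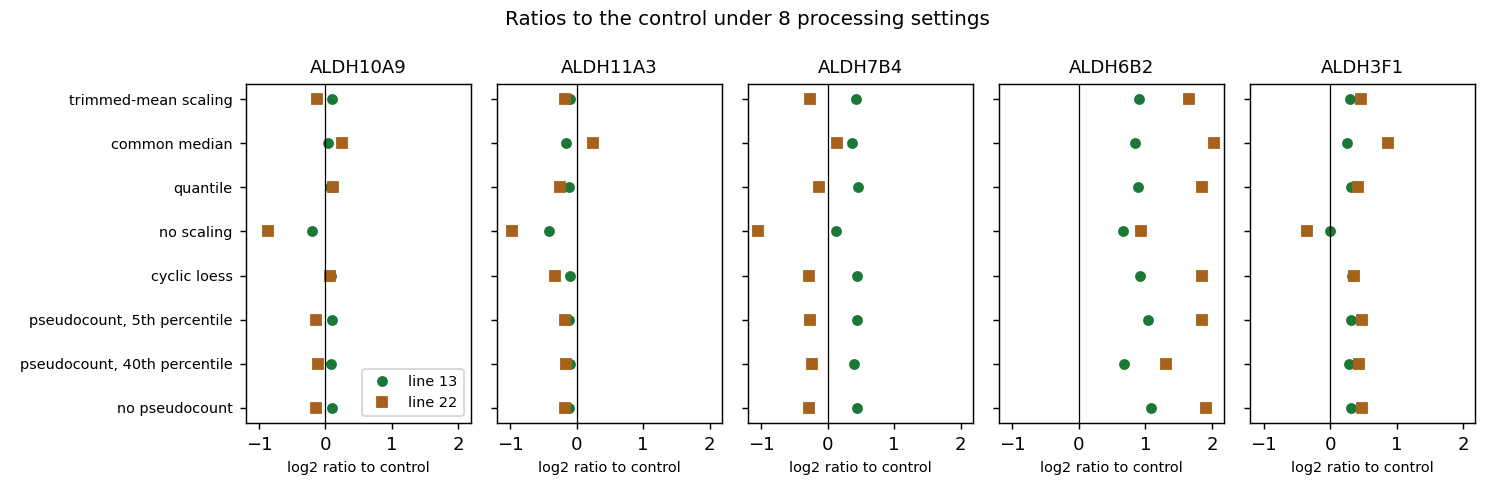
Log2 ratio to the control of each gene in line 13 (circles) and line 22 (squares) under 8 processing settings, down the page. ALDH6B2 stays above 0 in both lines in each of the 8, between 0.66 and 1.09 for line 13 and between 0.94 and 2.03 for line 22, while without scaling all 5 genes shift down in both lines.

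The comparison between the transgenic lines found 0 of the 5 genes at least 2-fold apart, beside 21.9% of all kept probe sets. The log2 difference of line 13 minus line 22 was 0.68 in ALDH7B4, 0.22 in ALDH10A9, 0.06 in ALDH11A3, -0.16 in ALDH3F1 and -0.75 in ALDH6B2. The median size over the 5 genes was 0.222, against 0.544 over all kept probe sets. The differences of ALDH6B2 and ALDH7B4 were below the 1.14 SD of that difference between probe sets of a gene. Each line had 1 array, so this comparison has no replicate check.

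The enzyme superfamily and the pathways around these genes were described from lists by locus. Of 16 listed genes of the aldehyde dehydrogenase superfamily, the 5 above were matched to a probe set, and the other 11 were not analysed here. The listed genes of branched-chain amino acid degradation, in whose valine branch ALDH6B2 acts, had 4 of 13 members matched and kept. Among these, MCCA, MCCB and AT2G26800 act in leucine breakdown, so the list does not describe the valine branch alone. Over the 4 the median log2 ratio was 0.28 in line 13 and 0.32 in line 22. The limma test passed 0 of the 4 in either direction, and 0 had an unadjusted p under 0.05. Of the 4 genes, 2 were higher than the control in both lines, beside 27.1% of all kept probe sets, and 2 lay on opposite sides, beside 42.5%.

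AT1G21400 encodes an E1 alpha subunit of the branched-chain 2-oxoacid dehydrogenase complex, which acts upstream of ALDH6B2 in valine breakdown. It read 206.1 in line 13 and 284.7 in line 22 as scaled intensities, against 134.3 for the control. Both lines lay above the control and line 22 was the higher, with log2 ratios of 0.56 and 0.99 and a mean of 0.77 ± 0.306 (SD, n = 2 lines; limma adjusted p = 1). MCCA, the biotinylated subunit of methylcrotonoyl-CoA carboxylase in leucine breakdown, had 418.3 and 307.7, against 243 in the control, with ratios of 0.74 and 0.32. Its probe set name ends in _s_at, a suffix that marks probes shared by several transcripts. Among the genes below, the probe sets of SAMDC, COR47 and LTI30 and 1 of AT2G42490 carry it too. Among the leaf genes above, RCA and 1 probe set of PSAE-1 do. Other suffixes occur as well, _f_at in AT1G56190, _r_at in the other AT2G42490 probe set, and _i_at and _r_at in KIN2 and PSAE-1. Whether probe sets with any of these suffixes read 1 gene alone was not checked. MCCB, the other subunit of methylcrotonoyl-CoA carboxylase, had 196.8 and 290.2, against 227.4 in the control, with ratios of -0.19 and 0.33. The subunits thus did not read alike. AT2G26800, of the hydroxymethylglutaryl-CoA lyase step that ends leucine breakdown, had 566.4 and 211.5, against 564.1 in the control, with ratios of 0.01 and -1.34.

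The remaining lists held few measured genes. For the pathway around ALDH11A3, 1 of 16 listed glycolytic genes was matched, AT1G56190, a phosphoglycerate kinase, which read 361.9 in line 13 and 545 in line 22, against 416.8 for the control. For polyamine and GABA metabolism, in which ALDH10A9 acts, 2 of 20 were matched. AT2G42490, a copper amine oxidase of the kind that makes aminoaldehydes from polyamines, had 2 probe sets, which disagreed in line 22 (log2 ratios 0.93 and -0.25). In line 13 they gave -0.17 and -0.50. SAMDC also had a pair that disagreed in line 22, at -0.01 and -4.80. The limma test passed 0 of the probe sets of these genes, and 1 of them, the lower SAMDC probe set, had an unadjusted p under 0.05. That probe set read 654.4 in line 13 (log2 ratio -0.08) and 692.5 in the control. In line 22 it read 6.8, below the pseudocount, so its mean ratio rests on that array alone. Of 10 listed dehydration and abscisic acid genes, which share with ALDH7B4 their known induction by drought, 4 were matched (COR47, COR15B, KIN2 and LTI30). With the probe sets of a gene averaged, their median log2 ratio was 0.43 for line 13 and -0.43 for line 22. By these averages 3 of the 4 lay on opposite sides of the control in the lines. Of single kept probe sets, 42.5% did. KIN2 was below the control in both lines (log2 ratios -0.08 and -0.23 with 1 probe set, -0.015 and -0.23 with the other). The COR47 probe sets disagreed in line 22 (-1.29 and 0.66), so COR47 is on opposite sides only by its average. Its probe set with 0.66 in line 22 had 0.83 in line 13, above the control in both lines. The limma test passed 0 of these 4 genes, and 0 had an unadjusted p under 0.05. None of the listed genes was matched for proline metabolism (6 genes), other aldehyde-reducing or aldehyde-oxidising enzymes (7 genes) and the aldehyde and alcohol branches of wax synthesis (3 genes).

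**Figure D4:**
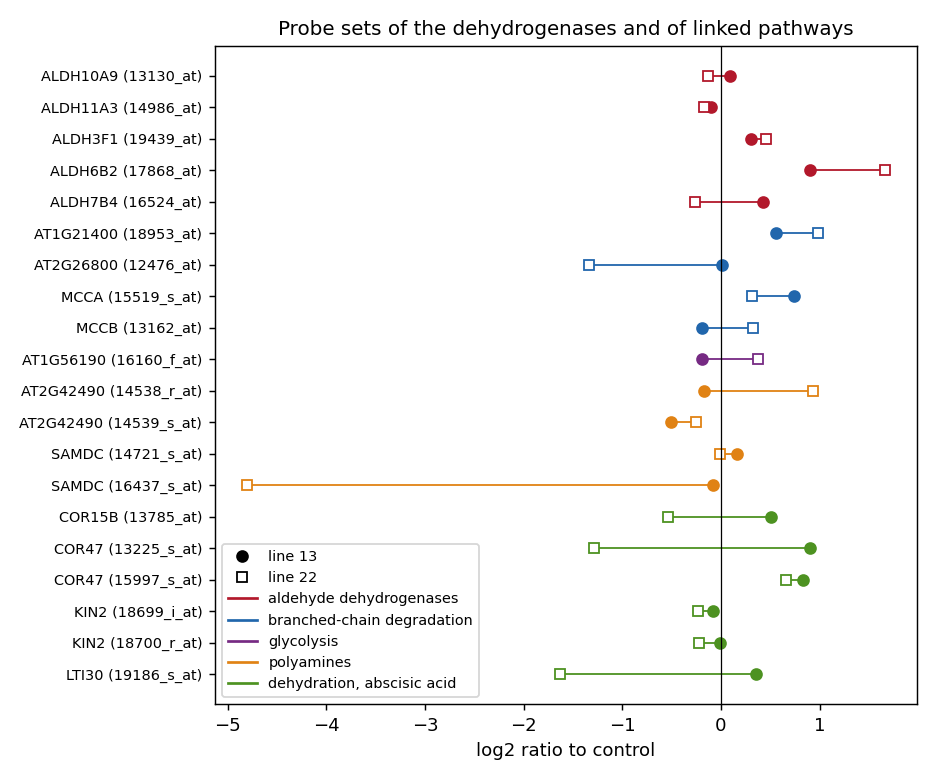
Log2 ratio to the control in line 13 (filled circles) and line 22 (open squares) for each probe set of the aldehyde dehydrogenases and of 4 linked gene lists, with a line joining the values of a probe set. ALDH6B2 (0.90 and 1.66), ALDH3F1 (0.30 and 0.46), AT1G21400 (0.56 and 0.99), MCCA (0.74 and 0.32) and 1 of the COR47 probe sets (0.83 and 0.66) lie to the right of 0 in both lines, and the others spread across 0 or lie left of it.

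The genes with the nearest pair of ratios were found for each dehydrogenase among the other 2597 kept probe sets of named genes, by the Euclidean distance between the log2 ratios of lines 13 and 22 over the 3 arrays. ALDH6B2 had no neighbour within 0.1. The nearest were AT2G38870 at a distance of 0.122, with log2 ratios of 0.995 and 1.74, and AT2G42760 at 0.272, with 1.16 and 1.57. The scaled intensities of AT2G38870 were 1008 for line 13 and 1701 for line 22, against 496.4 for the control. The other 4 genes lay in the dense middle of the distribution, with 17 probe sets (ALDH7B4) to 51 probe sets (ALDH11A3) within 0.1. Their nearest genes were AT4G32060 and AT4G30800 for ALDH3F1, AT4G13590 and AT2G40600 for ALDH11A3, AT4G11300 and AT2G31610 for ALDH10A9, and AT3G19100 and AT2G16880 for ALDH7B4, at distances from 0.00149 to 0.0469. The scaled intensities of AT4G30800, from 13.4 to 24.4, lie around the pseudocount. Near-equal ratios are common there, so these names carry little about any of the 4.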

How the data were processed

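The authors' deposited values were linear intensities from Affymetrix Arabidopsis genome arrays, 1 per probe set. How probes were summarised, and whether background was subtracted, is not given in the sources used here; 13.6% to 16% of an array's values lay at or below 0. All 3 chips came from 1 lot, per the file headers. Scale factors of 0.981 (line 13), 1.4 (line 22) and 0.788 (control) gave every array a trimmed mean (2% left out on each side) of 176.6. Values below 0 were set to 0, the pseudocount of 18.6 (20th percentile of positive values) was added and log2 taken. Probe sets above the 30th percentile of mean log2 intensity were kept (5773 of 8247).

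The test of lines against control was limma 3.58.1 in R 4.3.3 (lmFit, eBayes with trend, two-sided, Benjamini-Hochberg over kept probe sets). It was tried on simulated data in which all 3 arrays had the same noise. That simulation cannot check whether the control varies like the lines. The fit has 1 residual degree of freedom and a median of 85.3 prior degrees of freedom, and the lone control is assumed to vary like the lines. Names came from GEO's platform annotation, updated through RefSeq TAIR10.1: 3784 probe sets matched 1 locus. Since no genome build is named in the files, coordinates are left out. Named were the 5 genes, up to 4 members of each list by size of mean ratio, and the 2 nearest patterns. The genes and lists were chosen with earlier results of these data known. Precision is limited by the number of arrays, 3.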

Additional observations from a re-analysis of the deposited data

How the results depend on the processing

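No paired analysis was possible because there is 1 control array. Cyclic loess and the ratios with no pseudocount were chosen after seeing the data. Of 12 alternatives, 8 move the ratios, and in these the ALDH6B2 log2 ratio stayed above 0 in both lines (mean 0.8 to 1.5). The filters and the eBayes settings leave ratios as they are by construction. The limma test passed 0 of the 5 genes in the 11 alternatives with a test (adjusted p from 0.964 to 1). Means that turned sign were ALDH10A9 with a common median (0.145), quantile normalization (0.098) and cyclic loess (0.078), ALDH11A3 with a common median (0.041), and ALDH7B4 (-0.464) and ALDH3F1 (-0.17) on the deposited values, where the medians over all kept probe sets were -0.27 in line 13 and -0.78 in line 22. With 1 line left out, ALDH10A9 ranged from -0.129 to 0.093, ALDH11A3 from -0.168 to -0.106, ALDH7B4 from -0.261 to 0.424, ALDH6B2 from 0.904 to 1.658 and ALDH3F1 from 0.304 to 0.461. The number of the 5 genes 2-fold apart in both lines, 0, was 1 with a pseudocount at the 5th percentile and 1 with a floor, and 0 to 1 with a line left out. Over all probe sets, the 2 past adjusted p became 1 with a common median, a 5th percentile pseudocount, no trend or robust eBayes, 4 with a 40th percentile pseudocount, and 0 with quantile normalization, a floor, no filter or cyclic loess. The 82 probe sets 2-fold apart in both lines became 129 on the deposited values, 147 and 39 with the 5th and 40th percentile pseudocounts, 146 with a floor and 47 with a 50th percentile filter, and 158 to 1372 in a line alone. The 1262 between the lines became 752 with the 40th percentile pseudocount. In the other settings it ran from 918 with a 50th percentile filter to 1716 on the deposited values. Filters, fewer lines and larger pseudocounts change counts by construction, and other causes were not tested. With a line left out limma cannot be run, for want of residual degrees of freedom.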
